A study of Mus musculus with 2 samples.

Results

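The genes described here build and cut the hydrated matrix of versican and hyaluronan in the mitral valve. They are 10 genes of the 33640 in the deposited expression table, taken by symbol: the core proteoglycan genes Vcan and Acan, the link protein genes Hapln1 and Hapln3, the hyaluronan synthase genes Has1 and Has2, and the metalloprotease genes Adamts1, Adamts4, Adamts5 and Adamts9. All 10 symbols were found. The RNA came from mitral valves taken at 5 months of age from mice either wild type or heterozygous for the C1039G allele of Fbn1 (Fbn1C1039G/+). Fbn1 encodes the microfibril protein fibrillin-1, and the allele, a missense change carried in every cell, serves as a mouse model of Marfan syndrome. Each genotype was 1 library made from tissue pooled from 8 hearts of male and female mice, so there was no replicate, no error on any value and no test, and every difference below is one between these 2 libraries. Values are TPM, transcript abundances that are scaled for transcript length and library total and are meant for comparison between genes. The RNA was amplified before sequencing, and how evenly long and short transcripts were covered was not checked. Sequencing depth is unknown and is not kept in TPM, so no counting interval can be given. In each pair of values the wild-type pool comes first.

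Versican is a large chondroitin sulfate proteoglycan that binds the polysaccharide hyaluronan at one end. Link proteins hold that contact together, and the swollen aggregates keep the spongy middle layer of a heart valve compressible. Hyaluronan is spun out by synthases in the cell membrane from nucleotide sugars made in the cytosol. ADAMTS proteases cut the versican core protein, a step known from mouse knockouts to be needed when the cushions of the embryonic heart are remodelled into thin leaflets. Aggrecan, the product of Acan, is the related proteoglycan of cartilage.

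Vcan was the most abundant of the genes in both pools. It was at 443 TPM in wild-type tissue and reached 688 TPM in heterozygous tissue, 1.55-fold more. The other 9 genes together were at 133 and 134 TPM. In wild-type tissue the levels ran, from high to low, Vcan, Hapln1, Adamts1, Adamts5, Has2, Adamts9, Adamts4, Has1, Hapln3 and Acan. In heterozygous tissue the order was the same except that Has2 stood above Adamts5 and Has1 above Adamts4, and with no spread neighbours in this order cannot be told apart. Both synthase genes, Hapln3 and Adamts9 also had more TPM in the heterozygous pool, Hapln1, Adamts4, Adamts5 and Acan had less, and Adamts1 was close to the middle of all genes. The 4 proteases together had almost the same TPM in both pools, 63.2 and 63.3, while their substrate had more.

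**Figure D1:**
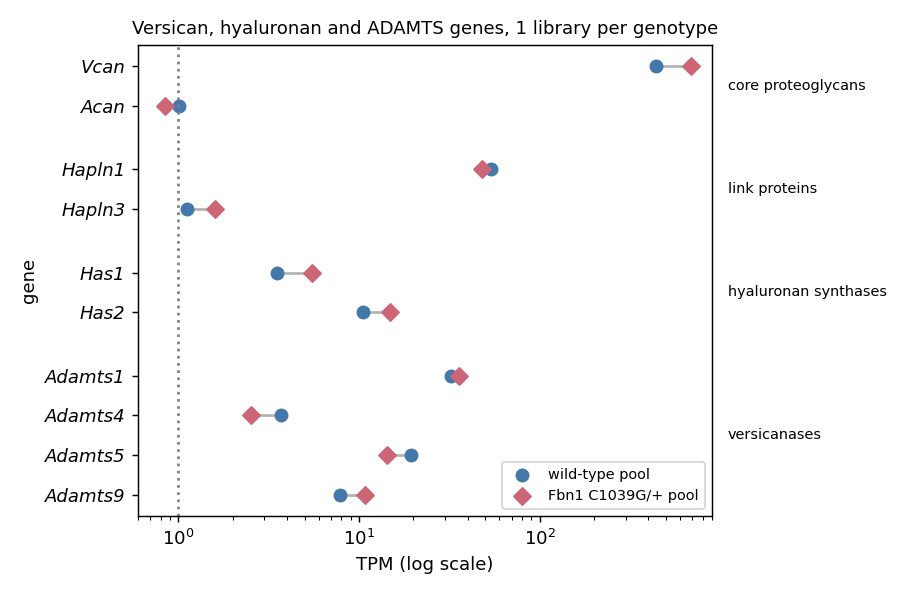
TPM of the 10 genes on a log scale, with a circle for the wild-type pool, a diamond for the Fbn1 C1039G/+ pool and a dotted line at 1 TPM. Vcan lies far to the right of the others in both pools, and Acan is the 1 gene whose diamond falls below 1 TPM.

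Differences were expressed as log2(TPM + 1) of heterozygous tissue minus that of wild-type tissue, for the 17004 genes whose mean TPM was 1 or more. Of the 10 genes 9 passed this filter, and Acan did not. Of the 17004 genes 64.9% lay above 0, and their median difference was 0.14. Of the 9 genes 6 lay above 0 and 5 above that median, with a median of 0.29. At least 2-fold higher were 4.81% of all genes and at least 2-fold lower 1.72%, and none of the 9 was among them. At least 1.5-fold higher (a difference of 0.58 or more) were 15.4% of all genes, and at least 1.5-fold lower 4.73%. Of the 9 genes 1, Vcan, was 1.5-fold higher and none was 1.5-fold lower, which is no larger a share than that of all genes. These splits depend on scaling: 2613 genes were 1.5-fold higher and 805 lower as deposited, and 1532 and 1374 after quantile normalization. They were 1832 and 1126 after centring, which here and below used the median of genes whose mean TPM was 10 or more (0.11).

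The width of the background varied with abundance. Among genes whose mean TPM was from 1 to 10, 22.3% were 1.5-fold higher and 7.92% lower. Among those from 10 to 100 TPM the shares were 11.2% and 2.54%, and among the 1390 genes at 100 TPM or more they were 7.19% and 2.88%. Vcan belongs to the last class, in which 5.90% of genes had a larger difference than its 0.63. Has1, Hapln3, Adamts4 and Adamts9 belong to the first. In it 43.0% of genes had a larger difference than Hapln3, 34.3% than Adamts9 and 26.1% than Has1. A smaller difference than that of Adamts4 was found in 12.0%.

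**Figure D2:**
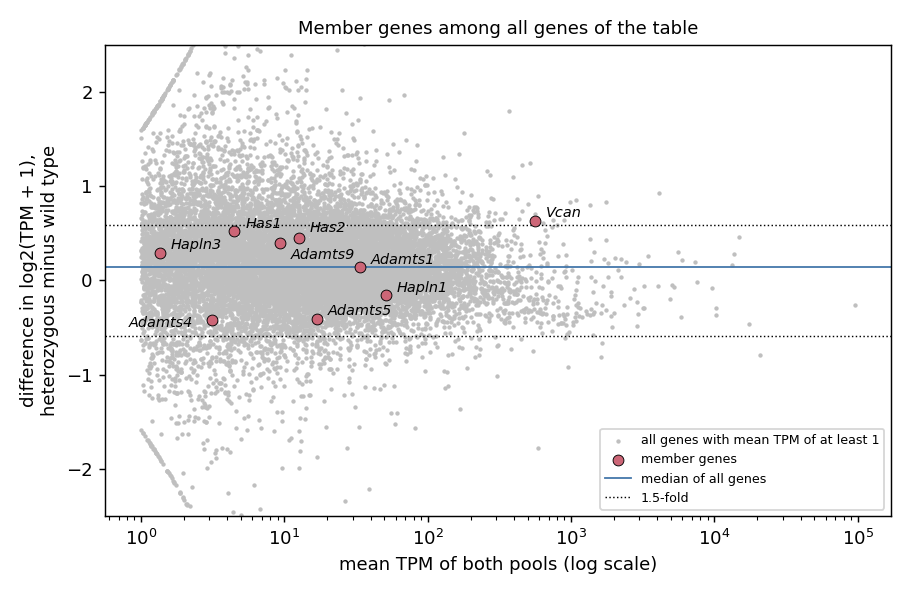
Difference in log2(TPM + 1), heterozygous minus wild type, against mean TPM on a log scale, for the 17004 genes whose mean TPM was 1 or more (grey) and the 9 genes that passed this filter (red). The blue line is the median of all genes and the dotted lines mark 1.5-fold; 110 genes lie beyond the vertical axis, which ends at 2.5 in each direction. Vcan is the 1 red point outside the dotted lines.

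Vcan (ENSMUSG00000021614.16) occupies positions 89655312 to 89742509 of chromosome 13 in mm10, on the minus strand. It stood at rank 216 of the table by TPM in wild-type and at rank 133 in heterozygous tissue. Its difference of 0.63 was 0.49 above the median of all genes. Vcan was past 1.5-fold as deposited and after quantile normalization (0.66). It was not after centring on the median of genes whose mean TPM was 10 or more (0.52), or without abundant gene classes (0.58). The GENCODE M21 annotation gives 5 Vcan transcripts with a consensus coding sequence, from 2273 to 12427 bases long. They differ mainly in a pair of large exons that carry the chondroitin sulfate attachment regions, one of 5217 bases (89688285 to 89693501) and one of 2880 bases (89702918 to 89705797). Vcan-203 holds both, Vcan-206 the larger alone, Vcan-202 the smaller alone, and Vcan-201 and the short Vcan-205 neither. The deposited table has 1 value per gene, so these forms cannot be told apart. How that value was formed from transcripts is not given. Only if 1 length per gene was used could a shift among transcripts of such different length itself alter it.

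Versican is also made by monocytes, and markers of monocytes had more TPM in the same pool. Of 12 such markers other than Vcan 11 lay above 0, beside 64.9% of all genes. As deposited 9 were 1.5-fold higher, beside 15.4% of all genes, and 5 were after centring and 6 after quantile normalization. Their summed TPM was 1011 and 1534, most of it from S100a4, Fn1 and Ace, which are not particular to monocytes. Ccr2, the receptor that draws monocytes into tissue, was at 11.8 and 35.0 TPM. S100a4, which fibroblasts also express, was at 640.0 and 962 TPM, Fn1 at 196 and 268 TPM and Ace at 142 and 227 TPM. Plac8 was listed at 0 in wild-type tissue and at 5.29 TPM in the other pool. Of 10 macrophage markers 1 was 1.5-fold higher, the Fc receptor gene Fcgr1 (3.98 and 7.72 TPM), and the summed TPM was 2072 and 2463. Markers of valve interstitial cells, the main cells that make valve matrix, summed to 18988 and 18799 TPM. The largest part of each sum was Dcn, at 11409 and 9304 TPM, so the sums hide differences of the other markers. Vim was at 2797 and 3167 TPM and Postn at 1269 and 2263 TPM. Of the 12 interstitial markers 7 lay above 0. As deposited 2 were 1.5-fold higher, Postn among them, and 1, Msx1 (27.1 and 14.8 TPM), was lower. After centring 2 were higher and 2 lower, and after quantile normalization 2 and 1. The part of either cell type in the Vcan value was not tested. In bulk tissue a different number of cells of a type and a different amount of RNA per cell cannot be told apart.

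The other core proteoglycan genes added little. Acan was at 1.01 and 0.847 TPM, so that Vcan exceeded it 439-fold in wild-type and 812-fold in heterozygous tissue. The related gene Bcan, whose product brevican is known from brain, was at 21.4 and 17.5 TPM. Of the TPM of Vcan, Acan, Bcan and Ncan together, Vcan held 95.1% and 97.3%. Acan lies on chromosome 7 at 79053483 to 79115099 on the plus strand, and Hapln3 ends 2 bases away on the other strand, so that their 3′ ends face each other. The labels do not say whether the libraries kept strand.

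The link protein genes went in different directions and at very different levels. Hapln1, whose product joins versican or aggrecan to hyaluronan, was at 54.0 and 48.3 TPM, a difference of −0.16. Hapln3, a less studied link protein, was at 1.12 and 1.60 TPM, a difference of 0.29 that rests on values near the filter. Hapln1 therefore had 48.2 times the TPM of Hapln3 in wild-type and 30.2 times in heterozygous tissue. Set against Vcan, Hapln1 had 12.2 TPM per 100 TPM of Vcan in wild-type and 7.02 in heterozygous tissue. Ratios of this kind are taken within a library and do not move when a library is rescaled as a whole. Hapln1 (chromosome 13, 89539796 to 89611652, plus strand) lies tail to tail with Vcan, with 43659 bases between them. Hapln1 and Vcan differed in opposite directions, though 18.0% of genes from 10 to 100 TPM had a smaller difference than Hapln1.

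Both hyaluronan synthase genes had more TPM in the heterozygous pool, and neither reached 1.5-fold on the scale used here. Has2, the synthase that mouse knockouts show to be required for the cushions of the embryonic heart, was at 10.6 and 14.8 TPM, a difference of 0.45. The gene is on the minus strand of chromosome 15 from 56665627 to 56694539. Among genes from 10 to 100 TPM, 18.0% had a larger difference. Has1, a synthase induced by inflammatory signals in fibroblasts, was at 3.51 and 5.48 TPM. That is a 1.56-fold ratio of TPM but a difference of 0.52 on the log2(TPM + 1) scale, which compresses low values, and with a pseudocount of 0.1 the difference was 0.63. Among genes from 1 to 10 TPM, 26.1% had a larger one. The remaining synthase gene, Has3, was at 2.62 and 2.87 TPM. The 3 synthases summed to 16.7 and 23.2 TPM, of which Has2 held 63.3% and 64.0%, Has1 21.0% and 23.6%, and Has3 15.7% and 12.4%. Has2 shares 182 of its 4237 exon bases with the antisense gene Has2os, and reads within that shared stretch cannot be assigned to either gene without strand.

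The versican-cleaving proteases differed in both directions within an almost constant sum. Adamts1, the most abundant of the 4, was at 32.2 and 35.6 TPM, and its difference of 0.14 lay at the median of all genes. Its sign depended on scaling, since it was −0.01 after quantile normalization. Adamts5, whose product cuts both versican and aggrecan, was at 19.4 and 14.4 TPM, a difference of −0.41, and 5.57% of genes from 10 to 100 TPM had a smaller one. Adamts4, its close relative and the other main aggrecan-cutting enzyme, was at 3.73 and 2.54 TPM, a difference of −0.42, which passed 1.5-fold lower after quantile normalization alone (−0.66). Adamts9, a protease of vessel wall and valve known in mouse to act on versican, was at 7.90 and 10.8 TPM, a difference of 0.40.

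Within the sum of the 4, Adamts1 held 50.9% in wild-type and 56.3% in heterozygous tissue. The share of Adamts5 was 30.7% and 22.7%, that of Adamts9 12.5% and 17.0%, and that of Adamts4 5.89% and 4.01%. Adamts1 had 1.66 times the TPM of Adamts5 in wild-type and 2.48 times in heterozygous tissue, although both lie on the minus strand of chromosome 16 with 53059 bases between them. Per 100 TPM of Vcan the 4 proteases had 14.3 TPM in wild-type and 9.20 TPM in heterozygous tissue, a ratio of 0.644 between the pools. This follows from more Vcan TPM with an almost equal protease sum. Adamts9 shares 1381 of its 15048 exon bases with A730049H05Rik, at 0.751 and 1.94 TPM. How reads in this overlap were divided is not given in the sources used here.

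A further 3 genes belong to the proteoglycan-cleaving branch of the ADAMTS family. Adamts15 was at 65.0 and 61.3 TPM, more than any of the 4 in either pool, and Adamts8 was at 12.9 and 24.3 TPM, a difference of 0.87. Adamts20 was at 1.33 and 1.12 TPM. With them the sum of 7 proteases was 142 and 150.0 TPM, and its level per 100 TPM of Vcan was 32.1 and 21.8, a ratio of 0.678. Adamts15 held 45.6% and 40.8% of this sum, and Adamts8 9.03% and 16.2%.

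**Figure D3:**
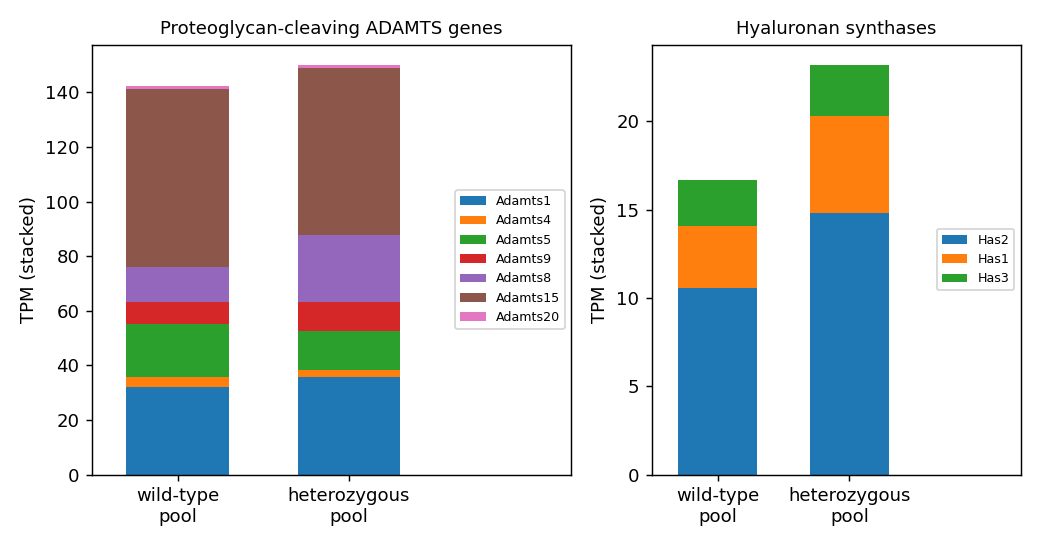
Stacked TPM of the 7 proteoglycan-cleaving ADAMTS genes (left) and of the 3 hyaluronan synthase genes (right) in each pool, 1 library per bar. The protease stacks reach 142 and 150.0 TPM, with a thinner Adamts5 band and a thicker Adamts8 band in the heterozygous pool, and the synthase stacks reach 16.7 and 23.2 TPM.

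The sequence before the start of transcription is shown for Vcan and Adamts1, the most abundant proteoglycan and protease gene of the 10, and for the 1 synthase gene that RefSeq's promoter table (GRCm38.p6) held, as context for their levels. Entries were found for 7 of the 10 genes; the others are Has2, Adamts4 and Adamts5. Each run is the 250 bases before the RefSeq start, 5′ to 3′ on the strand of the gene, and capitals mark a match on either strand to one of the motifs named in the next paragraph. The windows are chr13:89742513-89742762 for Vcan, chr17:17855189-17855438 for Has1 and chr16:85803114-85803363 for Adamts1, all on the minus strand.
Vcan: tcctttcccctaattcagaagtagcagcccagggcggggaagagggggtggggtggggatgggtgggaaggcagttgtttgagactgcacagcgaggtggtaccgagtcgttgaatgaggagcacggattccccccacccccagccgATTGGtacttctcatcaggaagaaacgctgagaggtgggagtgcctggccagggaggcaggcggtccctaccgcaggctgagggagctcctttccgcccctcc
Has1: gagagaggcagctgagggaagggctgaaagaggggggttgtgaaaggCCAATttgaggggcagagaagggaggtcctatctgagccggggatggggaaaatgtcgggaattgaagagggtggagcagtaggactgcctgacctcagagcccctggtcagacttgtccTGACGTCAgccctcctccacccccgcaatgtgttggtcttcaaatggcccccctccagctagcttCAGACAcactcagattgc
Adamts1: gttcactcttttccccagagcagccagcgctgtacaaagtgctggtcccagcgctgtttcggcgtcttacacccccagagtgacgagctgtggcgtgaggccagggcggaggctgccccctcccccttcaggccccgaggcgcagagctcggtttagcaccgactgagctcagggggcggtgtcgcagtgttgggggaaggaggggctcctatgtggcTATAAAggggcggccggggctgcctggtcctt

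The Adamts1 window has a TATA box that begins 32 bases before the start. Its letters, TATAAA, are found in 12.4% of the 32851 windows of the same length. The Has1 window has a cyclic AMP response element (TGACGTCA) that begins 83 bases before the start, found in 1.55% of windows. It also has a CCAAT box, whose letters 33.8% of windows hold, and a SMAD-type element 18 bases before the RefSeq start. GENCODE M21 begins Has1 at 17855205, inside this window, so most of that element lies within the gene by that annotation. The SMAD-type letters searched, CAGACA, are in 17.1% of windows. Vcan has a CCAAT box on the opposite strand 103 bases before the start and no other match. None of the 7 windows held the AP-1 letters TGANTCA, which 6.75% of all windows hold. No overlap between the motifs was found in these 3 windows.

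Other genes of the same pathway were read from 10 lists that together hold 79 further genes whose mean TPM was 1 or more. Of these 12 were 1.5-fold higher (15.2%, beside 15.4% of all genes) and 1 was 1.5-fold lower (1.27%, beside 4.73%). Above 0 lay 55 (69.6%, beside 64.9% of all genes). The enzymes that make the sugar nucleotides for hyaluronan lay mostly above the middle of all genes. Their median difference was 0.45 beside 0.14, 6 of 7 lay above 0, and 2 were 1.5-fold higher. After centring or quantile normalization the median was 0.34 or 0.32, 6 again lay above 0 and 1 was 1.5-fold higher. Uap1, which makes UDP-N-acetylglucosamine, was at 94.1 and 164 TPM, and Pgm3, the phosphosugar mutase before it, was at 22.1 and 33.9 TPM. Gfpt2, an entry enzyme of that branch, was at 47.0 and 64.4 TPM, and its relative Gfpt1 was at 42.3 and 48.8 TPM. Ugp2 and Ugdh, which lead to UDP-glucuronic acid, were at 67.0 and 94.1 TPM and at 61.3 and 75.2 TPM. Gnpnat1, an acetyltransferase of the same route, was the 1 gene below 0, at 12.6 and 11.3 TPM.

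Receptors of hyaluronan had a median difference of 0.37. All 7 measured members lay above 0 as deposited, beside 64.9% of all genes, and 6 did after centring or quantile normalization. Of the 7, 2 were 1.5-fold higher as deposited, beside 15.4% of all genes. Under either of those scalings 1 was, beside 1832 of the 17004 genes after centring and 1532 after quantile normalization. Cd44, the main hyaluronan receptor and one that leukocytes and fibroblasts both carry, was at 226 and 354 TPM, a difference of 0.64 close to that of Vcan. Hmmr, a hyaluronan-binding protein of dividing cells, was at 6.41 and 11.4 TPM, and Tlr4, an innate immune receptor, was at 96.4 and 125 TPM. Of the proteins that bind or cross-link hyaluronan 5 were measured and 1 was 1.5-fold higher. None was 1.5-fold lower as deposited, and 1 was after centring or quantile normalization. The higher one was Tnfaip6, whose product transfers heavy chains onto hyaluronan in inflammation, at 14.4 and 25.9 TPM. Itih5, a heavy chain gene, was at 211 and 314 TPM and Ptx3, a pentraxin of the same matrix, was at 37.3 and 42.7 TPM. The heavy chain genes Itih2 and Itih4 had less, at 16.1 and 12.4 TPM and at 17.2 and 11.7 TPM. Genes of hyaluronan breakdown had a median of 0.01, which turned to −0.10 after centring and −0.12 after quantile normalization, and none of 7 was 1.5-fold different. The hyaluronidase gene Hyal1 was at 32.7 and 42.9 TPM, and the lysosomal hexosaminidase gene Hexa was at 85.1 and 80.6 TPM.

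**Figure D4:**
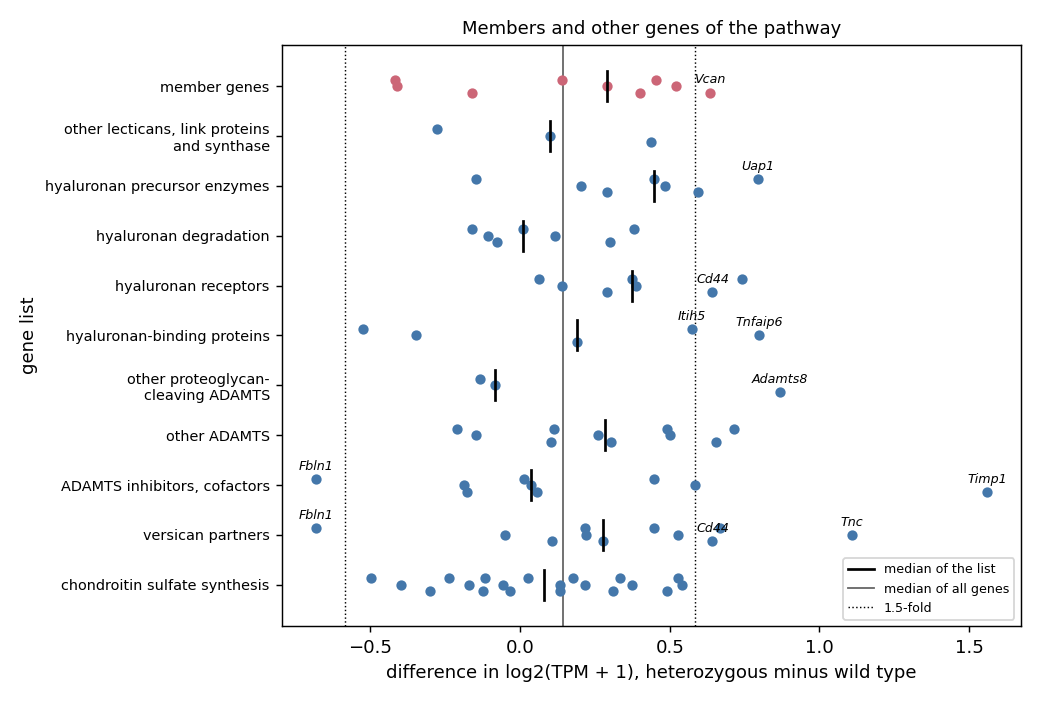
Difference in log2(TPM + 1), heterozygous minus wild type, of the 9 genes (red) and of 10 lists of other pathway genes (blue), each point a gene whose mean TPM was 1 or more; black bars are list medians, the grey line the median of all genes and dotted lines 1.5-fold. The precursor enzymes (median 0.45) and receptors (median 0.37) lie to the right of the grey line, and the breakdown genes (median 0.01) lie around 0.

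Partners and inhibitors of the proteases differed in both directions. Fbln1, whose product fibulin-1 binds versican and is a cofactor of ADAMTS1, was 1.5-fold lower at 383 and 239 TPM. Timp3, the main tissue inhibitor of ADAMTS4 and ADAMTS5, was at 2214 and 2270.2 TPM, the most abundant gene of these lists, and Timp2 was at 534 and 469 TPM. Timp1, which acts mainly on matrix metalloproteinases, was at 90.9 and 269.9 TPM. Among versican-binding matrix proteins Tnc, tenascin-C, was at 5.54 and 13.1 TPM and Fbn1 itself was at 108 and 126 TPM. The allele alters an amino acid, so the level of Fbn1 does not check the genotype labels. Of 11 genes in this partner list 3 were 1.5-fold higher and 1 lower as deposited, beside 15.4% and 4.73% of all genes. After centring 1 was higher and after quantile normalization 2, with 1 lower under each.

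Genes that build chondroitin sulfate chains showed no common direction. Of 20 measured genes 11 lay above 0, with a median of 0.08. None was 1.5-fold different on the log2(TPM + 1) scale, beside 15.4% of all genes higher and 4.73% lower. That scale compresses low values. As a ratio of TPM, genes at low levels passed 1.5-fold in both directions, among them Chst3 at 1.54-fold. After centring the median was −0.03 and 1 gene was 1.5-fold lower, and after quantile normalization it was −0.07 and 2 were. The chain-starting xylosyltransferase gene Xylt2 was at 7.50 and 11.2 TPM, the chain-extending Chsy1 at 90.9 and 73.7 TPM, the sulfotransferase gene Chst3 at 5.04 and 7.78 TPM and the epimerase gene Dse at 29.6 and 36.9 TPM. Other ADAMTS genes, most of them with substrates other than versican, had a median of 0.28. Of 10 measured 2 were 1.5-fold higher, beside 15.4% of all genes: Adamts7 (4.13 and 7.41 TPM) and Adamts12 (11.1 and 18.0 TPM). The procollagen-processing Adamts2 (53.0 and 75.5 TPM) and the microfibril-associated Adamts10 (65.4 and 92.3 TPM) were not. After centring 1 of the 10 was 1.5-fold higher and after quantile normalization none, with medians of 0.17 and 0.10.

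Markers of other cell types also differed between the pools. Of 10 neutrophil markers 7 had a mean TPM of 1 or more, and 4 of these were 2-fold higher, beside 4.81% of all genes. S100a9 was at 2.34 and 48.0 TPM, S100a8 at 0.369 and 16.2 TPM and Cxcr2 at 6.43 and 18.0 TPM. The whole list summed to 19.1 and 105 TPM. Granule genes were low in both pools. Camp was at 1.49 and 0.949 TPM, Ltf was at 0.671 TPM in wild-type tissue and listed at 0 in the other pool, Ngp was listed at 0 in wild-type tissue and at 0.286 TPM in the other pool, and Elane was listed at 0 in both. Of 15 immediate early genes, which respond quickly to stimulation, 3 were 1.5-fold higher and 1 lower as deposited, beside 15.4% and 4.73% of all genes, and 2 were higher after centring and 1 after quantile normalization. Egr2 was at 12.4 and 27.3 TPM and Nr4a1 at 35.0 and 20.8 TPM, while Egr1 (132 and 158 TPM) and Dusp1 (158 and 174 TPM) differed less. Of 10 cardiac muscle markers 2 were 1.5-fold lower and 1 higher as deposited, while after centring 4 were lower and none higher. They summed to 2667 and 1995 TPM, with the ventricular Myl2 at 407 and 201 TPM and the natriuretic peptide gene Nppa at 117 and 179 TPM, so transcripts of heart muscle were present in both pools. Of 7 T cell markers 5 were 1.5-fold lower, beside 4.73% of all genes. The list summed to 85.3 and 54.9 TPM, with Cd3e at 19.2 and 6.35 TPM but Cd3d at 19.7 and 26.9 TPM. Of 7 lymphatic markers 3 were 2-fold lower, beside 1.72% of all genes. The list summed to 373 and 213 TPM, a gap that comes mainly from Ccl21a at 244 and 94.3 TPM. Mmrn1 was at 12.2 and 1.45 TPM and Lyve1 at 44.7 and 58.8 TPM. Endothelial markers summed to 659 and 684 TPM, but 5 of 8 lay below 0 and 3 above, with a median of −0.08. Kdr was at 18.5 and 12.3 TPM and Emcn at 109 and 143 TPM. Smooth muscle markers summed to 147 and 167 TPM. Of the 5 measured 3 lay above 0 and 2 below, and 1 was 1.5-fold lower, beside 4.73% of all genes. Tagln was at 32.5 and 49.2 TPM and Des at 16.5 and 11.7 TPM. The part of these cells and genes in the differences above was not tested.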

How the data were processed

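Mitral valve RNA of wild-type and Fbn1C1039G/+ mice, pooled from 8 hearts per genotype, was amplified and sequenced as 1 library each, per the labels' protocols. The authors deposited 1 table of TPM per gene symbol, per the file header, with column sums of 999964 and 999945. Trimmomatic, HISAT2, kallisto and the mm10 genome are named in the submitters' processing notes. For their versions and roles, the annotation and the step from transcripts to genes the entry is: not given in the sources used here. Amplified reads without molecular identifiers are not independent molecules.

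Differences in log2(TPM + 1) were computed with a pseudocount of 1 for genes whose mean TPM was 1 or more. Python 3.11.15, numpy 2.4.6 and pandas 2.3.3 were used. The calculation was tested on simulated data with 200 altered genes. That check covered the 2-fold call for larger changes in genes well above the filter. It did not cover 1.5-fold calls or altered genes at low TPM. No test was possible with 1 library per group. Positions come from GENCODE M21 (mm10) and promoters from RefSeq (GRCm38.p6). The members and lists were chosen with earlier results of these data known. Named beside all members and Fbn1 were, per list, the 2 most abundant genes and the 2 of largest difference at a mean TPM of at least 5; Gfpt1, Gfpt2, Gnpnat1, Ugdh, Adamts20, Plac8, Ace, Itih2, Itih4, Nppa, Camp, Ltf, Elane, Ngp, A730049H05Rik and Gm16318 were added after their values were seen, as were the motifs and the sum of 7 proteases. Not every gene that the rule takes is given, and some results are not reported here.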

Additional observations from a re-analysis of the deposited data

How the results depend on the processing

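Across 7 alternatives Vcan, Hapln3, Has1, Has2 and Adamts9 lay above 0 wherever they were measured, and Hapln1, Adamts4 and Adamts5 below 0. Adamts1 ran from −0.01 to 0.14. The median over the 9 genes (0.29) was 0.44 with a pseudocount of 0.1, 0.13 with 5, 0.18 after centring and 0.087 after quantile normalization. Hapln3 ran from 0.09 to 0.47 and Has1 from 0.30 to 0.63. The count of the 9 genes at least 1.5-fold higher was 1, but 2 with a pseudocount of 0.1 (Vcan and Has1), 0 after centring and 0 without abundant or predicted gene classes (mitochondrial, globin, ribosomal, Gm and Rik); 1 gene, Adamts4, was 1.5-fold lower after quantile normalization. Over all genes, 2-fold higher and lower counts (818 and 293) became 1264 and 464 with a pseudocount of 0.1, 209 and 87 with 5, 360 and 103 at a mean TPM of at least 5, and the higher count 440 without the abundant classes. The 1.5-fold counts (2613 and 805) became 1172 and 358 with a pseudocount of 5, 1530 and 399 at a mean TPM of at least 5 and 1532 and 1374 after quantile normalization. The higher count was 1635 without the abundant classes, and the lower count was 1230 with no filter. The cause of these shifts was not tested beyond what each setting alters by construction. The protease to Vcan ratio between the pools (0.644) was 0.562 after quantile normalization, chosen after seeing the data. No paired analysis was possible because each genotype is 1 library. Leaving out a replicate could not be run either. Depth is unknown, and Acan, Hapln3 and Adamts4 rest on low TPM.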

Other observations

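The predicted processed pseudogene Gm16318, which lies within the span of Vcan on the opposite strand and shares no annotated exon base with it, had 20.1 TPM in wild-type tissue and 36.4 TPM in heterozygous tissue.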
